A study of Danio rerio with 9 samples.

Results

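The genes described here encode the folding and secretion machinery of the endoplasmic reticulum (ER): its chaperones, disulfide isomerases, stress sensors, protein translocation channel and the COPII coat that carries cargo out. They were taken by a pattern of gene symbols, restricted to protein-coding genes with a value of 10 or more in at least 3 libraries, and all 47 genes that matched the pattern passed that filter. The 47 stand among 17891 genes tested and 21692 in the table. The pattern also took in dnajc30b, whose mammalian counterpart is a mitochondrial J protein, and sec23ip, a partner of the COPII coat.

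Secreted and membrane proteins enter the ER through the Sec61 channel, fold there with the help of chaperones and enzymes that form disulfide bonds, and leave in COPII-coated vesicles. When unfolded proteins accumulate, the membrane sensors Atf6, Ire1 (gene ern1) and Perk (gene eif2ak3) start the unfolded protein response. In that response Atf6 and spliced Xbp1 raise transcription of chaperone genes, whereas Perk slows translation through phosphorylated eIF2α and leads to Atf4 and Chop (gene ddit3). Cells that lay down extracellular matrix, as heart valve cells do, and cells that secrete large amounts of protein keep this machinery at a high level.

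The series profiled zebrafish heart valve tissue cut out by laser microdissection, in 9 polyA RNA-seq libraries of 2 hearts each. The groups were 48 h after valve cell ablation (3 libraries), 21 d after ablation (3 libraries) and uninjured (3 libraries). Ablation was done with a 6 h bath in 2.5 mM metronidazole, and whether the uninjured fish had the bath too is not stated in the labels. The transgene, its promoter, the strain and the age of the fish are not given in the sources used here, and separate fish behind each library are not stated either. The p-values therefore reflect how far these libraries differ, which may be partly technical.

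Values are the authors' normalised read counts per gene, which the deposited table gives as whole numbers. Column totals ran between 15383031 and 21616553. They went with the groups: the 48 h libraries had at most 17979624, and every other library at least 18877857. Spearman correlations across genes were 0.896 to 0.925 between libraries of one group and 0.844 to 0.922 between libraries of different groups. A gene is called higher or lower where limma's moderated test on log2(value + 1) gave a Benjamini-Hochberg adjusted p under 0.05 over all 17891 genes. Fold changes are on that scale. Groups are called separate where their 3 values and the other group's 3 do not overlap.

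At 48 h after ablation, 11 of the 47 genes (23.4%) were higher than in uninjured valves, against 4.44% of all genes tested. A single gene (2.13%) was lower, against 6.33% of all genes tested. The genes that rose were the chaperones hspa5, hsp90b1, hyou1 and dnajc3b, the lectin chaperones calr, calr3a, calr3b and canx, the disulfide isomerases pdia3 and pdia4, and the sensor atf6. The gene that fell was ppp1r15a, which encodes the stress-induced subunit that directs protein phosphatase 1 to eIF2α. The folds of the 11 genes that rose lay between 1.63 and 2.83. The median log2 fold change was 0.41 over the 47 genes and 0.01 over all genes tested, and 32 of the 47 were above 0. The groups were separate with 48 h higher in 18 of the 47 (38.3%), against 13.6% of all genes tested, and separate with 48 h lower in 4 (8.51%), against 13.6%. In the same libraries, the summed markers of macrophages were 4.02 times and those of dividing cells 5.62 times the uninjured mean, and those of heart muscle 0.566 times. Their part in the result was not tested. In whole tissue pieces of this kind, a different number of cells of one type and a different amount of RNA per cell cannot be told apart. The median coefficient of variation of the 47 genes within a group was 17.6% at 48 h, 16.7% at 21 d and 20.5% in uninjured valves.

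**Figure D1:**
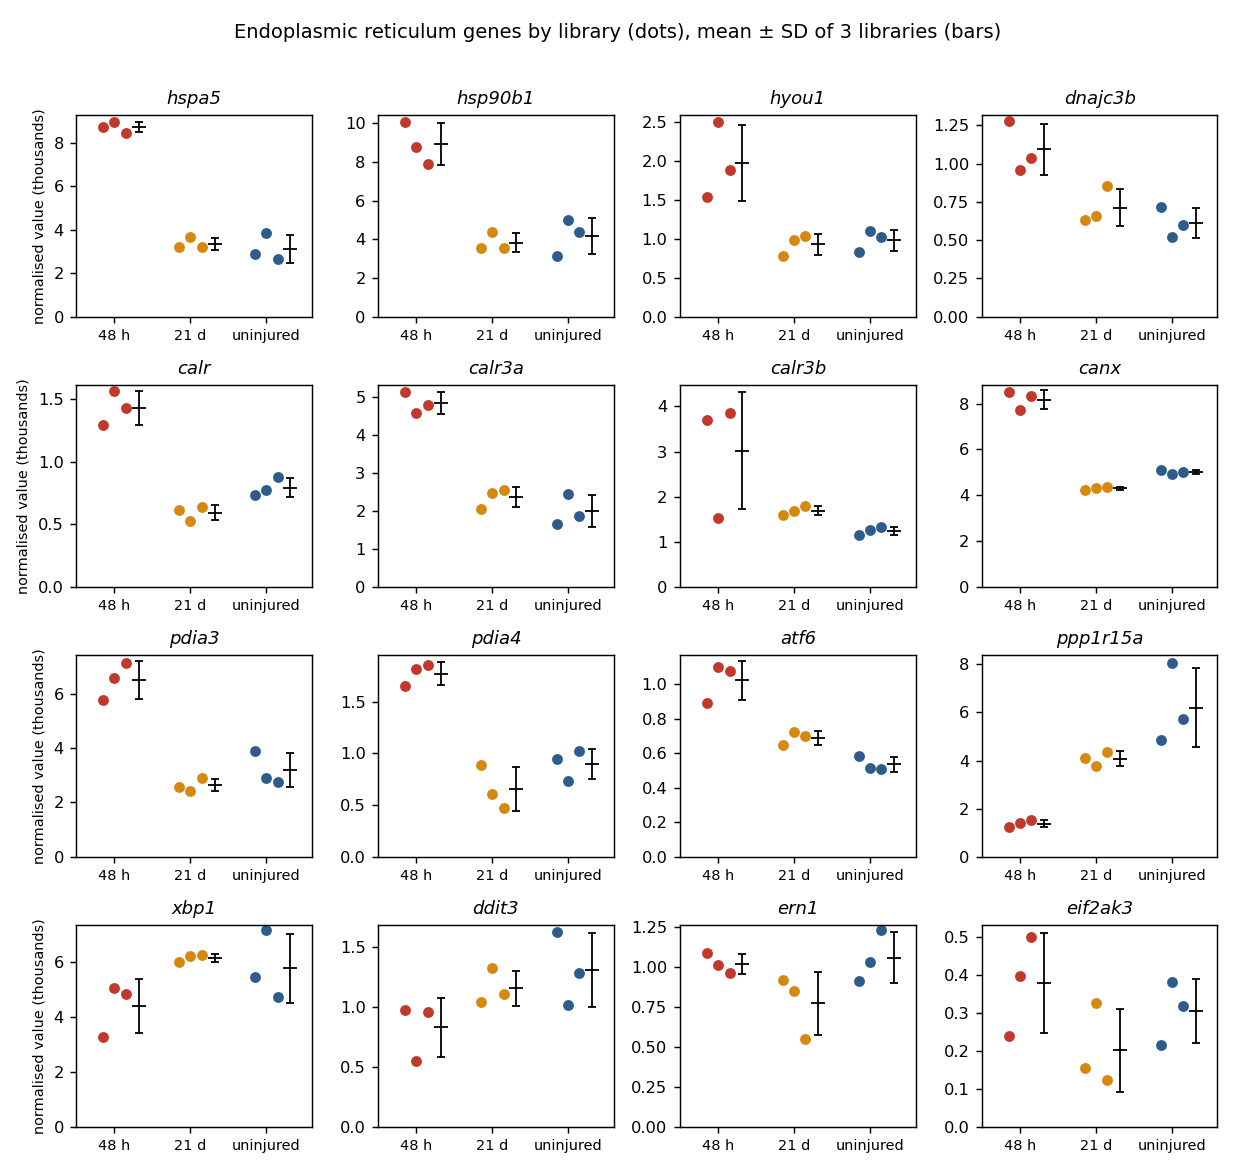
Normalised value (scaled as the axis label states) of 16 genes in each library, with 1 panel per gene; dots are libraries and bars the mean ± SD of 3 libraries at 48 h, at 21 d and in uninjured valves. The first 11 panels, from hspa5 to atf6, show 48 h libraries above both other groups except for calr3b, where 1 library at 48 h had 1519, below the 21 d libraries; ppp1r15a runs the other way, and xbp1, ern1 and eif2ak3 overlap between 48 h and uninjured valves.

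Among the general chaperones of the ER lumen, hspa5 (ENSDARG00000103846), which encodes the Hsp70 protein BiP, had 8726, 8940 and 8458 at 48 h, 3193, 3648 and 3189 at 21 d and 2860, 3851 and 2654 in uninjured valves. All 3 values at 48 h were above every other library, and they lay closer to each other (SD 242) than those of uninjured valves (SD 640). The log2 fold change at 48 h was 1.50 (SE 0.18, limma adjusted p = 2.74e-06). hsp90b1 (ENSDARG00000003570), the gene of the ER-resident Hsp90 protein Grp94, had 10087, 8795 and 7907 at 48 h, 3570, 4382 and 3537 at 21 d and 3158, 4995 and 4394 in uninjured valves. Again the 48 h libraries stood above all others, with a log2 fold change of 1.11 (SE 0.19, limma adjusted p = 0.000255).

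hyou1 (ENSDARG00000013670) encodes a large Hsp70-related protein that exchanges the nucleotide of BiP. It had 1538, 2508 and 1887 at 48 h, 777, 979 and 1038 at 21 d and 828, 1095 and 1018 in uninjured valves, and the 48 h libraries did not overlap with the others. The log2 fold change was 0.99 (SE 0.24, limma adjusted p = 0.00692), and without 48 h library 2, the highest of its group, the adjusted p was 0.0564. dnajc3b (ENSDARG00000017874) encodes a J-domain partner of BiP, the zebrafish counterpart of the mammalian P58IPK. Its values were 1280, 960 and 1038 at 48 h, 629, 658 and 850 at 21 d and 715, 523 and 599 in uninjured valves. The 48 h libraries were above both other groups, with a log2 fold change of 0.84 (SE 0.26, limma adjusted p = 0.035). This was the least secure of the chaperone calls: the adjusted p was 0.124 without 48 h library 1, 0.0717 without 48 h library 3, 0.128 without uninjured library 2 and 0.0855 without uninjured library 3.

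The other 8 genes of this class did not pass the test at 48 h. dnajb11, another J-domain partner of BiP, had 1701, 1225 and 1685 at 48 h, 617, 748 and 756 at 21 d and 1102, 1064 and 804 in uninjured valves. Its 48 h values were above all others, with a log2 fold change of 0.63 (limma adjusted p = 0.0974). manf, a secreted, ER-retained factor known in mammals to protect cells under ER stress, had 400, 610 and 585 at 48 h, 288, 176 and 239 at 21 d and 225, 368 and 277 in uninjured valves. Its 48 h values too were above all others, with a log2 fold change of 0.88 (limma adjusted p = 0.126). For dnajc3a, a second gene related to P58IPK, the values were 294, 204 and 232 at 48 h and 136, 105 and 65 in uninjured valves, and the adjusted p was 0.213. creld2, a stress-inducible ER protein, had 161, 221 and 327 at 48 h, 106, 80 and 66 at 21 d and 52, 240 and 55 in uninjured valves. Its 240 in uninjured library 2 overlapped with the 48 h values, and leaving that library out moved the adjusted p of 0.182 to 0.0485.

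Not every gene of this class was high at 48 h. sdf2l1, a component of ER chaperone complexes, had 449, 225 and 386 at 48 h and 393, 296 and 317 in uninjured valves, a log2 fold change of 0.03 (limma adjusted p = 0.981). The low-level gene dnajb9a, a co-chaperone and known Xbp1 target in mammals, had 13, 0 and 72 at 48 h, 103, 42 and 107 at 21 d and 12, 167 and 52 in uninjured valves. Its duplicate dnajb9b had 101, 97 and 57 at 48 h, 56, 199 and 84 at 21 d and 0, 80 and 37 in uninjured valves. The 48 h and uninjured ranges overlapped for both genes, and no fold is given for either because of the libraries at 0. dnajc30b, counted in this class although its mammalian counterpart is mitochondrial, spread between 27 and 174 over the 9 libraries. Its log2 fold change was 0.32 (limma adjusted p = 0.859).

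The lectin chaperones were the class in which every gene passed: 4 of 4 were higher at 48 h, against 4.44% of all genes tested. Calnexin, the membrane member, and calreticulin, its soluble relative, bind the sugar chains of new glycoproteins and hold them until they fold. canx (ENSDARG00000037488) had 8495, 7706 and 8346 at 48 h, 4210, 4326 and 4342 at 21 d and 5111, 4908 and 5007 in uninjured valves. Its 48 h libraries were clear of both other groups, and within groups the SDs were 419, 72 and 102. The log2 fold change was 0.71 (SE 0.16, limma adjusted p = 0.00411). calr3a (ENSDARG00000103979), one of 3 calreticulin genes here, had 5129, 4571 and 4780 at 48 h, 2052, 2461 and 2546 at 21 d and 1655, 2446 and 1864 in uninjured valves. With 48 h clear of both other groups, its log2 fold change was 1.30 (SE 0.19, limma adjusted p = 5.8e-05).

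calr3b (ENSDARG00000102808) had 3689, 1519 and 3847 at 48 h, 1595, 1677 and 1784 at 21 d and 1138, 1265 and 1315 in uninjured valves. Library 2 at 48 h was far below the other two of its group, although still above every uninjured library. The log2 fold change was 1.17 (SE 0.27, limma adjusted p = 0.00608). calr (ENSDARG00000076290) had 1298, 1565 and 1431 at 48 h, 611, 528 and 641 at 21 d and 732, 775 and 876 in uninjured valves. These 3 groups did not overlap anywhere, with 48 h highest and 21 d lowest, and the log2 fold change at 48 h was 0.85 (SE 0.24, limma adjusted p = 0.0202). That call was lost without 48 h library 2 (adjusted p = 0.0774), 48 h library 3 (0.058), uninjured library 1 (0.0708) or uninjured library 2 (0.0606). calr3a and calr3b, like dnajc3a and dnajc3b, dnajb9a and dnajb9b, and sec61a1 and sec61a1l, are related pairs between which the authors' counting could have split shared reads.

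Of the 4 protein disulfide isomerases, 2 were higher at 48 h, against 4.44% of all genes tested. pdia3 (ENSDARG00000102640) encodes Erp57, the isomerase that works with calnexin and calreticulin on glycoproteins. It had 5770, 6592 and 7140 at 48 h, 2585, 2436 and 2903 at 21 d and 3904, 2906 and 2767 in uninjured valves, so that 48 h was clear of both groups. The log2 fold change was 1.04 (SE 0.19, limma adjusted p = 0.000464). pdia4 (ENSDARG00000018491) encodes Erp72, an isomerase with several thioredoxin-like domains. Its values were 1651, 1817 and 1854 at 48 h, 893, 612 and 475 at 21 d and 942, 734 and 1021 in uninjured valves. The 48 h libraries were again the 3 highest, with a log2 fold change of 0.99 (SE 0.25, limma adjusted p = 0.0114), and without uninjured library 2 the adjusted p was 0.0681.

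pdia5 had 831, 861 and 757 at 48 h, 404, 566 and 421 at 21 d and 613, 749 and 462 in uninjured valves. Its 48 h libraries were above both other groups, but the log2 fold change of 0.45 had a 95% interval of -0.13 to 1.03 and an adjusted p of 0.357 by limma. pdia6, whose mammalian product is known to bind the Ire1 sensor, had 850, 925 and 1117 at 48 h, 997, 932 and 695 at 21 d and 570, 1003 and 839 in uninjured valves. All groups overlapped for pdia6, and the log2 fold change of 0.29 had an interval of -0.25 to 0.83.

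**Figure D2:**
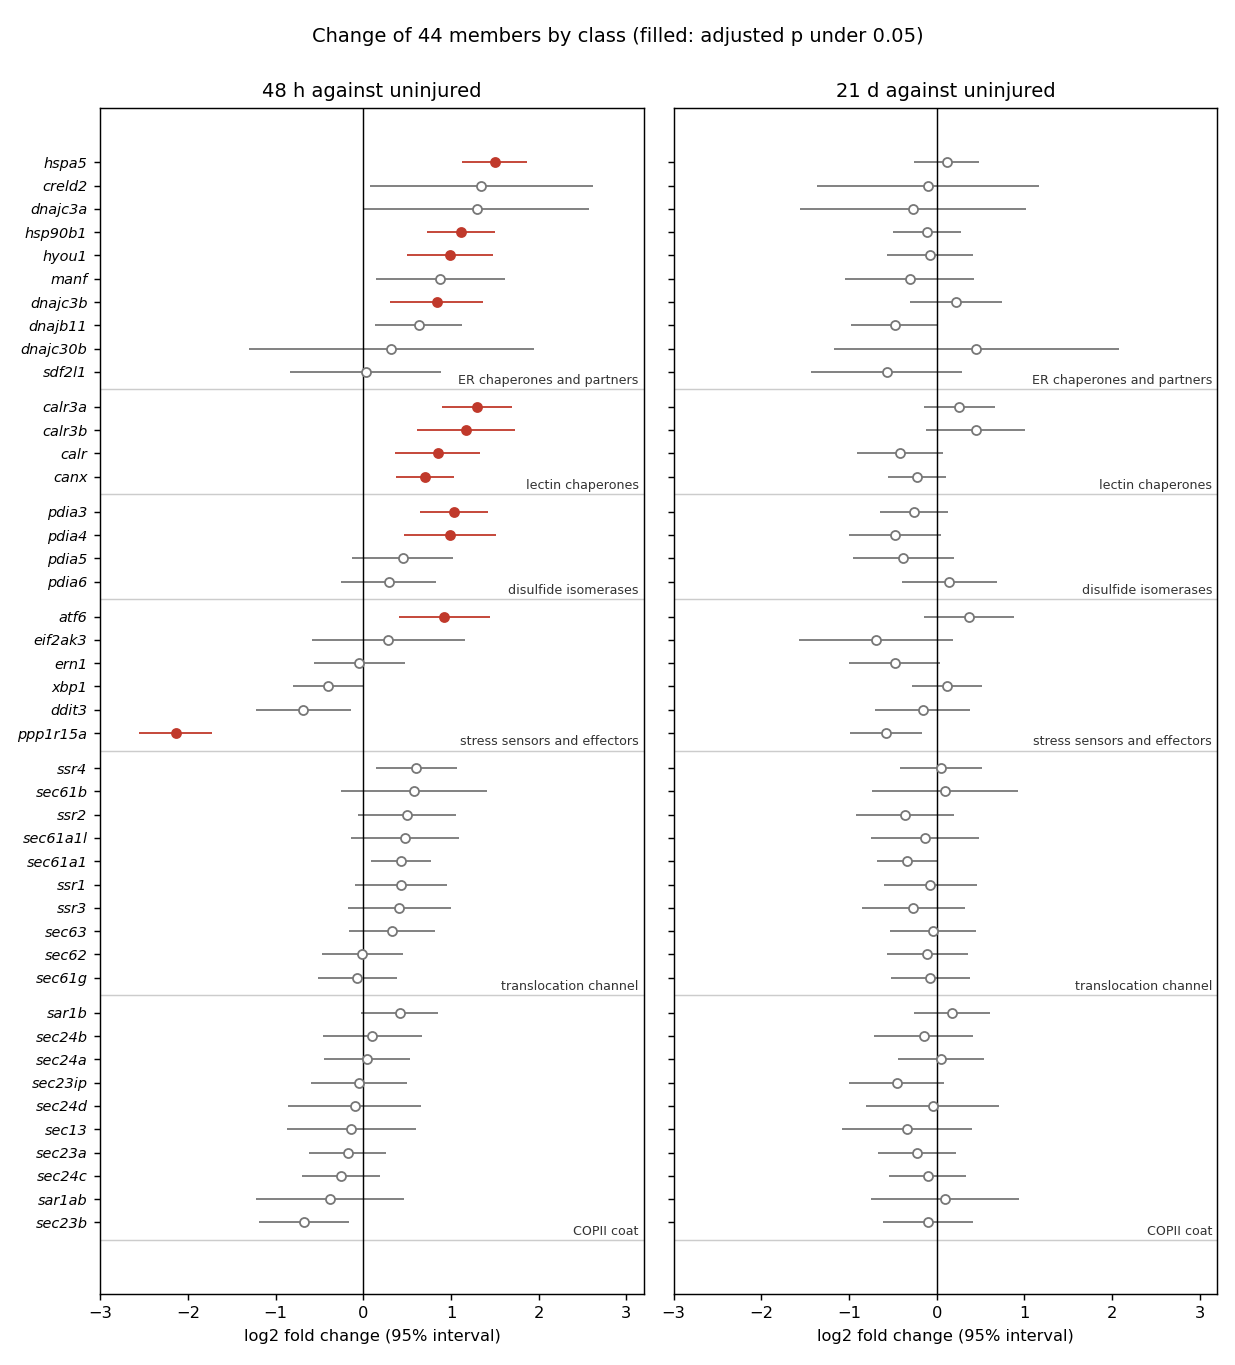
Log2 fold change with its 95% interval for 44 genes, ordered by class from ER chaperones to COPII coat, at 48 h (left) and 21 d (right) against uninjured valves; filled points have an adjusted p under 0.05, and dnajb9a, dnajb9b and sec16b are left out because they have libraries at 0. The 12 filled points all lie on the left, 11 of them above 0 and ppp1r15a at -2.14.

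The 6 stress sensors and effectors did not move together at 48 h: 1 was higher, 1 was lower and 4 did not pass. Over all genes tested, 4.44% were higher and 6.33% were lower. As counts in a class of 6 genes, these cannot be told from those shares. atf6 (ENSDARG00000012656), the sensor that is cut in the Golgi to release a transcription factor, had 888, 1099 and 1074 at 48 h, 644, 721 and 701 at 21 d and 584, 516 and 506 in uninjured valves. The 3 groups did not overlap, in the order 48 h, 21 d, uninjured. The log2 fold change at 48 h was 0.93 (SE 0.25, limma adjusted p = 0.0162). It lost its call, narrowly, without 48 h library 2 (adjusted p = 0.0592), 48 h library 3 (0.0591), uninjured library 2 (0.051) or uninjured library 3 (0.0536).

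ern1, the gene of the sensor Ire1, had 1087, 1015 and 961 at 48 h, 920, 849 and 549 at 21 d and 912, 1034 and 1229 in uninjured valves. The 48 h values fell inside the uninjured range, and the log2 fold change of -0.04 had a 95% interval of -0.56 to 0.48. xbp1 (ENSDARG00000035622), whose mRNA Ire1 splices, had 3273, 5046 and 4844 at 48 h, 5981, 6215 and 6234 at 21 d and 5450, 7141 and 4704 in uninjured valves. Its log2 fold change of -0.40 (SE 0.19) did not pass (limma adjusted p = 0.218), and a value per gene does not separate spliced from unspliced xbp1. eif2ak3, the gene of the sensor Perk, had 240, 399 and 501 at 48 h, 154, 327 and 124 at 21 d and 216, 383 and 319 in uninjured valves. These ranges overlapped in every pair of groups, and the log2 fold change at 48 h was 0.29 (SE 0.42, limma adjusted p = 0.75).

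Downstream of Perk, ddit3 (ENSDARG00000059836), the gene of the transcription factor Chop, had 976, 549 and 962 at 48 h, 1043, 1323 and 1106 at 21 d and 1630, 1017 and 1286 in uninjured valves. Every 48 h library was below every uninjured one, and the log2 fold change of -0.68 (SE 0.26) did not pass (limma adjusted p = 0.101). ppp1r15a (ENSDARG00000069135), known in mammals as Gadd34, had 1225, 1390 and 1531 at 48 h, 4112, 3755 and 4364 at 21 d and 4841, 8049 and 5727 in uninjured valves. The 3 groups were fully separate, with 48 h lowest and uninjured highest, and the log2 fold change at 48 h was -2.14 (SE 0.20, limma adjusted p = 6.66e-08).

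None of the 10 genes of the translocation channel and its partners passed at 48 h, with log2 fold changes between -0.07 and 0.61 and limma adjusted p between 0.0899 and 0.982. In a class of 10 genes, 0 calls cannot be told from the 4.44% of all genes tested called higher. Their median was 0.43, close to the 0.41 of the 47 genes together. Separate with 48 h higher were 3 of the 10 (30%), against 13.6% of all genes tested. sec61a1 (ENSDARG00000021669), the pore-forming subunit, had 9030, 7941 and 8251 at 48 h, 4781, 5430 and 4622 at 21 d and 6246, 7253 and 5330 in uninjured valves. Its 48 h libraries were above all others, and the log2 fold change was 0.43 (SE 0.17, limma adjusted p = 0.107). ssr4, a subunit of the translocon-associated protein complex, had 1409, 1616 and 1897 at 48 h, 977, 1048 and 1325 at 21 d and 1167, 1120 and 936 in uninjured valves. Its 48 h values too were above all others, with the lowest adjusted p of the class, 0.0899, at a log2 fold change of 0.61. sec63, which brings BiP to the channel, was the remaining gene of the class with 48 h separate from uninjured valves, at a log2 fold change of 0.32. The other 7 genes overlapped between 48 h and uninjured valves. Among them the channel subunit gene sec61b had 332, 821 and 1125 at 48 h, 578, 322 and 596 at 21 d and 510, 308 and 582 in uninjured valves, at a log2 fold change of 0.58, with 48 h library 1 among the low values. sec61a1l, a second pore gene, was at 0.48, ssr2 at 0.50, ssr1 at 0.43 and ssr3 at 0.41, whereas sec62, a partner of sec63, was at -0.01 and the small subunit gene sec61g at -0.07.

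The 11 genes of the COPII coat and its partners also gave no call at 48 h, and their median log2 fold change was -0.13. Here too, 0 calls cannot be told from the 4.44% higher and 6.33% lower of all genes tested. The small GTPase gene sar1b, which starts coat assembly, had a log2 fold change of 0.41 with a 95% interval of -0.02 to 0.85. The cargo-binding subunit gene sec24a was at 0.05, with an interval of -0.44 to 0.54. sec23b, an inner coat subunit, had 532, 732 and 562 at 48 h, 857, 838 and 1007 at 21 d and 871, 1124 and 912 in uninjured valves. Each 48 h value was below each value of the other groups, and the log2 fold change of -0.68 did not pass (limma adjusted p = 0.087). Its paralogue sec23a was at -0.18, sec24b at 0.11, sec24c at -0.25, sec24d at -0.10, the outer coat gene sec13 at -0.13, sec23ip at -0.05 and the GTPase gene sar1ab at -0.38. Of these, sar1ab had 48 h libraries that were all below the uninjured ones. The low-level gene sec16b, a scaffold of ER exit sites, had 40, 0 and 36 at 48 h, 29, 3 and 18 at 21 d and 83, 39 and 87 in uninjured valves, and no fold is given because of the library at 0.

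**Figure D3:**
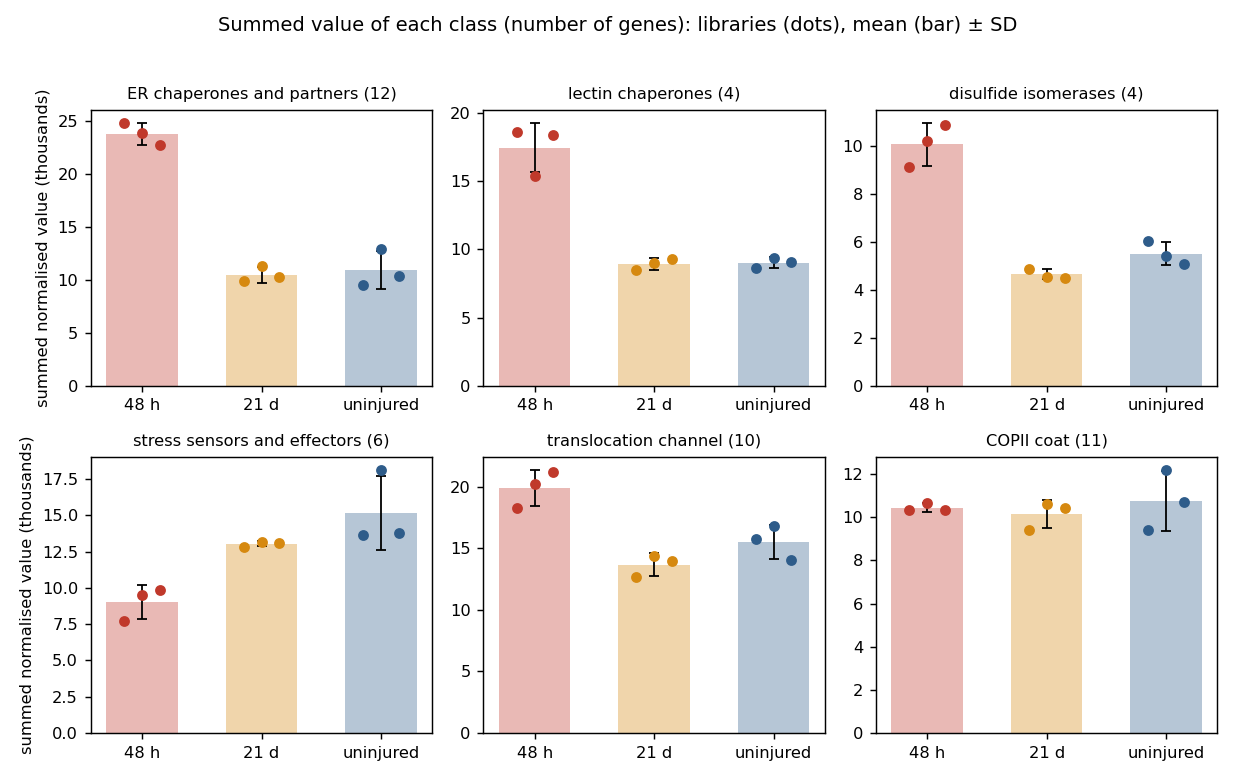
Summed normalised value (scaled as the axis label states) of the genes of each class in each library (dots), with bars for the mean and whiskers for the SD of 3 libraries, at 48 h, at 21 d and in uninjured valves. The sums of ER chaperones, lectin chaperones, disulfide isomerases and translocation channel at 48 h lie above every library of the other groups, that of stress sensors and effectors lies below them, and the COPII sums overlap.

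Summed over each class, the translocation channel went with the chaperones and disulfide isomerases, its 48 h sums above all others. None of its genes was called at 48 h. A few genes with large values weigh most in such sums. The 12 ER chaperones and partners added up to 24806, 23874 and 22727 at 48 h, 9891, 11332 and 10264 at 21 d and 9508, 12904 and 10344 in uninjured valves. The mean sum at 48 h was 2.18 times that of uninjured valves. The ratio was 1.93 for the lectin chaperones, 1.83 for the disulfide isomerases, 1.28 for the translocation channel and 0.97 for the COPII coat. These ratios depend on the scaling, since column totals were lowest at 48 h. As a percent of the column total, COPII sums were 0.0594 to 0.0672 at 48 h and 0.0484 to 0.0567 in uninjured valves, without overlap. The 6 stress sensors and effectors, in which ppp1r15a and xbp1 carry most of the sum, added up to 7689, 9498 and 9873 at 48 h, 12854, 13190 and 13078 at 21 d and 13633, 18140 and 13771 in uninjured valves. The sum of that class was lower at 48 h, at 0.594 times the uninjured mean. Its genes did not move together, since ppp1r15a was called lower and atf6 higher.

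At 21 d after ablation, none of the 47 genes differed from uninjured valves by limma's test, against 0.52% of all genes tested called higher and 0.933% called lower. At an unadjusted p under 0.05, 1 gene was higher and 1 was lower, against 5.61% and 6.27% of all genes tested. The median log2 fold change was -0.11 over the 47 genes, 15 of which were above 0, and 0.02 over all genes tested. Groups were separate with 21 d higher in 2 of the 47 (4.26%), calr3b and atf6, against 8.44% of all genes. They were separate with 21 d lower in 7 (14.9%), which were dnajb11, calr, canx, ppp1r15a, sec16b, sec23a and sec23ip, against 9.46% of all genes. The gene lower before adjustment was ppp1r15a, at a log2 fold change of -0.58 (SE 0.20, limma adjusted p = 0.196). The higher one was the low-level dnajb9b, which was at 0 in uninjured library 1 and whose 21 d and uninjured values overlapped.

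The genes that rose at 48 h lay on either side of uninjured valves at 21 d, by amounts that the test did not call. hspa5 was at a log2 fold change of 0.12 and hyou1 at -0.07. atf6 was at 0.36 (limma adjusted p = 0.611) and calr3b at 0.44 (0.555), both above uninjured in all 3 libraries. calr was at -0.42 (0.512) and canx at -0.22 (0.629), both below uninjured in all 3 libraries. The 2 comparisons with uninjured valves share the 3 uninjured libraries, so their values for a gene are not independent of each other.

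Between 21 d and 48 h, 12 of the 47 genes (25.5%) were lower at 21 d, against 4.4% of all genes tested, and 1 (2.13%) was higher, against 5.48%. The median log2 fold change was -0.50 over the 47 genes and 0.00 over all genes tested. Groups were separate with 21 d lower in 21 genes (44.7%), against 13.7% of all genes. This comparison shares the 48 h libraries with the first one, so the values of the 2 are not independent. Of the 11 genes that rose at 48 h, 8 were among the 12: hspa5, hsp90b1, hyou1, calr, calr3a, canx, pdia3 and pdia4. pdia4 was at -1.47 (limma adjusted p = 0.000337), hspa5 at -1.38 (1.08e-05) and pdia3 at -1.30 (4.12e-05).

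The other 3 genes that rose at 48 h were not called between 21 d and 48 h. dnajc3b was at -0.62 (limma adjusted p = 0.139), atf6 at -0.56 (0.174) and calr3b at -0.72 (0.1), and calr3b without 48 h library 2 gave an adjusted p of 0.00118. In the other direction, 4 genes were lower at 21 d than at 48 h without having passed at 48 h: dnajb11 at -1.11 (limma adjusted p = 0.00311), manf at -1.18 (0.0345), sec61a1 at -0.77 (0.00345) and the translocon-associated subunit gene ssr2 at -0.86 (0.0413). For all 4, the 21 d mean was below the uninjured mean, and for each the change at 21 d against uninjured did not pass. manf lost its call without 48 h library 2 (adjusted p = 0.121), 48 h library 3 (0.123), 21 d library 2 (0.138) or 21 d library 3 (0.0751). ssr2 lost it without 48 h library 2 (0.0988), 48 h library 3 (0.182), 21 d library 1 (0.18) or 21 d library 2 (0.117).

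The one gene higher at 21 d than at 48 h was ppp1r15a, at 1.56 (SE 0.20, limma adjusted p = 9e-06). Its partners of the same class did not pass: xbp1 was at 0.51 (0.102), ddit3 at 0.52 (0.244), eif2ak3 at -0.98 (0.164) and ern1 at -0.43 (0.32).

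The wider pathway was described with 8 lists of 133 further genes, none of them among the 47. At 48 h, 6 of the 133 (4.51%) were higher and 10 (7.52%) were lower, close to the 4.44% and 6.33% of all genes tested, with a median log2 fold change of 0.31. With all column totals set equal the counts were 25 higher and 6 lower, and with quantile normalisation 15 were higher. Over all genes tested, calls of both directions together numbered 1997 and 1943 in those settings, against 1927 in the main fit. Shares by direction were not counted there, so 25 and 15 cannot be set against 4.44%. Equal totals put the median of all genes tested at 0.28, from 0.01. Among the 133, the count of higher genes was 2 without uninjured library 1 or 2. It was 3 without uninjured library 3, 48 h library 2 or 48 h library 3. The list of ER folding partners gave no call among 20 genes at 48 h, with a median of 0.52. In it p4hb, the gene of the archetypal protein disulfide isomerase, had 4851, 5071 and 5701 at 48 h, 3102, 2712 and 3470 at 21 d and 4204, 3962 and 3473 in uninjured valves, separate at 48 h but with a limma adjusted p of 0.138.

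Calls in both directions were found in 2 of the other lists, ER-associated degradation and the targets of the Perk branch. The shares called higher, 5.26% and 7.14%, were near the 4.44% of all genes tested. The shares called lower were 15.8% (3 of 19) and 28.6% (4 of 14), against 6.33%. The lists are small, and 3 of 19 cannot be told from that share. The 4 of 14 include atf4b, lost in 12 of 19 alternatives. In ER-associated degradation, the route that returns misfolded proteins to the cytosol, derl2, a channel component, averaged 1139 ± 671 at 48 h, 322 ± 62.6 at 21 d and 286 ± 80.2 in uninjured valves (SD, n = 3 libraries each). Its log2 fold change was 1.88 (limma adjusted p = 0.000962), whereas 3 of the 19 genes of that list were lower, among them edem3, a mannosidase-like gene, at -1.29 (0.00277). herpud1, an ER membrane gene of the same route that ER stress induces in mammals, averaged 1058 ± 194 at 48 h, 762 ± 129 at 21 d and 991 ± 127 in uninjured valves, a log2 fold change of 0.08 at 48 h (limma adjusted p = 0.885). The sugar-sensing gene uggt1, which sends unfolded glycoproteins back to calnexin and calreticulin, was at 1.16 (limma adjusted p = 0.0317, lost in 5 of 19 alternatives, up to 0.11). The single calls of tram1, sec31a and arf1 in the signal-peptide, COPII-partner and KDEL/COPI lists were lost in 9, 10 and 12 of 19 alternatives.

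At 48 h, 4.44% of all genes tested were higher and 6.33% were lower. In the list of targets of the Perk branch and the integrated stress response, 1 of 14 genes was higher at 48 h and 4 were lower. The higher one was atf4a, a zebrafish gene of the transcription factor Atf4, with 5987, 7006 and 8799 at 48 h, 3624, 3592 and 3931 at 21 d and 4444, 4337 and 2842 in uninjured valves. It was separate from both other groups, with a log2 fold change of 0.92 (SE 0.20, limma adjusted p = 0.00274). ddit4, a stress-induced inhibitor of mTOR signalling, had 1137, 1646 and 1740 at 48 h, 2770, 2905 and 2570 at 21 d and 7246, 5240 and 6078 in uninjured valves. Its order was that of ppp1r15a, lowest at 48 h and highest in uninjured valves, and it passed at 48 h (log2 fold change -2.05, limma adjusted p = 1.53e-07) and at 21 d (-1.16, 0.0026). The second Atf4 gene, atf4b, had 5800, 7325 and 5701 at 48 h and 8916, 9933 and 8062 in uninjured valves, a log2 fold change of -0.52 whose limma adjusted p of 0.0486 was lost in 12 of 19 alternatives. Among the ER-to-nucleus membrane factors, 3 of 10 genes (30%) were lower at 48 h, against 6.33% of all genes tested. They included insig1, which retains the sterol-regulated factors in the ER, at -1.91 (limma adjusted p = 0.000462). Another was the sterol-responsive factor gene srebf2 at -0.69 (limma adjusted p = 0.0328, lost in 7 of 19 alternatives). The remaining one, srebf1 at -1.79 (limma adjusted p = 0.0333), was also lost in 7 of 19. Of the 3 calls in this small list, only that of insig1 was kept in all 19. creb3l1, a membrane-bound factor known in mammals for collagen secretion, was near 0, with 0, 1 and 22 at 48 h, 42, 18 and 22 at 21 d and 45, 19 and 13 in uninjured valves.

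At 21 d against uninjured valves, 1 of the 133 genes (0.75%) was higher and 1 (0.75%) was lower. These shares were close to the 0.52% and 0.933% of all genes tested. The higher gene was the stress-induced factor atf3 at 1.08 (limma adjusted p = 0.0363, lost in 6 of 19 alternatives), and the lower one ddit4. At 48 h, atf3 was lower than in uninjured valves, at -1.20 (limma adjusted p = 0.00294, kept in all 19 alternatives). Between 21 d and 48 h, 7 of the 133 (5.26%) were higher at 21 d, against 5.48% of all genes tested. Another 16 (12%) were lower, against 4.4%. The 16 included 5 ER folding partners: ero1a, the oxidase that recharges disulfide isomerases, p4hb, txndc5, erp44 and ppib. ero1a had 77, 170 and 163 at 21 d and 406, 627 and 1202 at 48 h, against 345, 458 and 325 in uninjured valves, and its log2 fold change between 21 d and 48 h was -2.38 (limma adjusted p = 0.00035). The count of 16 was 32 with equal column totals, 10 without 48 h library 2 or 21 d library 1, and 7 without 48 h library 3. The share of all genes called lower was not counted in those fits.

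**Figure D4:**
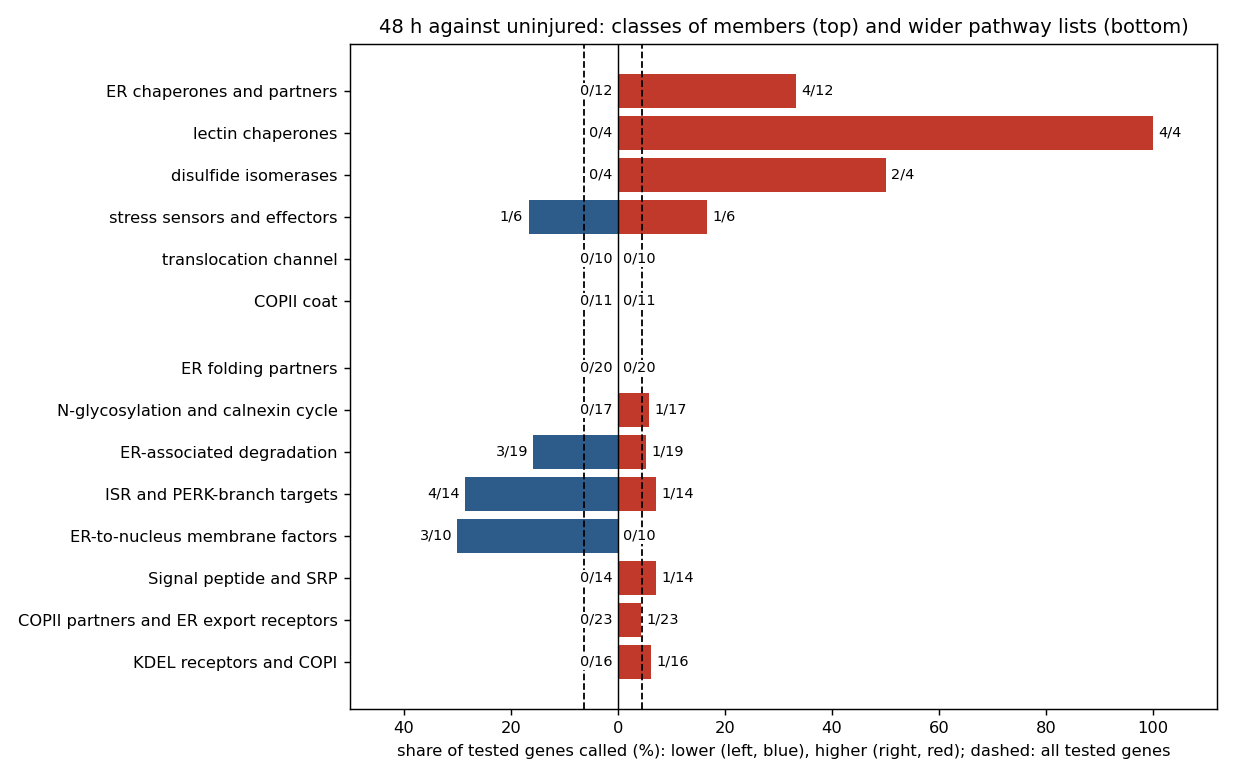
Share of tested genes (%) called higher (right, red) or lower (left, blue) at 48 h against uninjured valves, for the 6 classes of the 47 genes (top) and the 8 wider pathway lists (bottom), with counts at the bars; dashed lines mark the shares over all genes tested, 4.44% higher and 6.33% lower. Among the member classes the higher calls sit in the folding classes and atf6. The translocation channel (0 of 10) and the COPII coat (0 of 11) are too small for 0 to be told from 4.44%.

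Marker levels of several cell types also differed in the same comparison. The marker counts at 48 h stand beside 4.44% of all genes tested called higher and 6.33% called lower. Of 19 macrophage marker genes, 17 were higher at 48 h, and their summed value was 21547 to 28461 at 48 h, 7060 to 12055 at 21 d and 5607 to 7008 in uninjured valves. Of 15 genes of dividing cells, 14 were higher, with sums of 10432 to 17732 at 48 h, 2599 to 3671 at 21 d and 1923 to 3096 in uninjured valves. For neutrophils, 4 of 11 genes were higher, with sums of 10176 to 11362 at 48 h, 2546 to 4781 at 21 d and 3565 to 5831 in uninjured valves. These 3 groups of markers were therefore above uninjured in every 48 h library.

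On the deposited scale, summed markers of valve interstitial cells and heart muscle went the other way, and those of endothelium did not. Of 15 valve interstitial genes, 11 were lower and 1 was higher at 48 h, with sums of 164051 to 195635 at 48 h, 194168 to 216206 at 21 d and 230960 to 287291 in uninjured valves. Of 16 heart muscle genes, 10 were lower and none was higher, with sums of 427804 to 533617 at 48 h, 801254 to 962696 at 21 d and 817863 to 938054 in uninjured valves. Endothelial sums were 35226 to 57850 at 48 h, 31245 to 34599 at 21 d and 28525 to 36840 in uninjured valves, with 3 of 15 genes higher and 1 lower. Red cell sums overlapped between 48 h and uninjured valves, at 305561 to 787021 and 711065 to 1696372, with 1 of 12 genes higher and 1 lower. As a percent of the column total, valve interstitial sums overlapped, at 1.004 to 1.223 at 48 h and 1.19 to 1.339 in uninjured valves. Endothelial sums were then separate and higher at 48 h, at 0.2176 to 0.3615 against 0.132 to 0.1952 in uninjured valves. Heart muscle sums stayed lower, at 2.781 to 3.198 against 3.917 to 4.832.

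Plasma cells, which secrete antibodies and are rich in this machinery, were checked by marker genes of B and plasma cells. Of 17 listed, only 8 were in the deposited table, and 6 of these had values high enough to be tested. Sums over the 8 were 391 to 491 at 48 h, 145 to 174 at 21 d and 82 to 184 in uninjured valves, and 2 of the 6 tested were higher at 48 h. irf4a and igic1s1 were at 0 in all 3 uninjured libraries, and irf4b was at 0 in all 3 libraries at 21 d. The part of macrophages, neutrophils, dividing cells, B and plasma cells in the changes of the 47 genes was not tested. Nor was that of the summed values of heart muscle and valve interstitial markers, which were lower on the deposited scale.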

How the data were processed

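RNA from laser-microdissected valve tissue, 20 ng per library, was sequenced as 75-base read pairs, per the labels' protocols. The submitters' processing notes name FastQC 0.11.8, Trimmomatic 0.33, STAR 2.6.0c, featureCounts 1.6.0, DESeq2 1.18.1 and the build GRCz11. Their settings and the size factors are not given in the sources used here. The deposited table holds a normalised signal per gene from the authors, in whole numbers: median-of-ratios factors recomputed from it over 13019 genes above 0 in every library differed by at most 0.11%. It was therefore treated as normalised and no count model was run. Depth per library before scaling is unknown, so no interval from counting error is given.

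From these values, log2(value + 1) of the 17891 genes with at least 10 in at least 3 libraries was fitted with limma 3.58.1 (R 4.3.3; trend, robust empirical Bayes, 6 residual degrees of freedom) over all 3 groups, with 3 contrasts and Benjamini-Hochberg adjustment over all genes. Figures used matplotlib 3.10.9 on Python 3.11.15. The procedure was also run on simulated counts with the same dispersion for every gene. That setting is simpler than these data, so the run does not bear on the calls. The 9 table columns match the 9 sample titles. Ensembl identifiers were matched to a gene name table: all 47 were found, 44 under the same symbol.

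The genes, the wider lists and the marker lists were chosen with earlier results of these data known. Genes given with full values by rule are hspa5, hsp90b1, the calreticulins, canx, the 6 sensors and effectors, and up to 4 called members of each class. Library values of other members, such as dnajb11, manf, pdia5, sec61a1 and sec23b, are given outside that rule. From each wider list, up to 2 called genes with the smallest adjusted p at 48 h are named, plus p4hb, atf4a, atf4b, ero1a, herpud1 and creb3l1; other genes named were chosen after their values were seen. Alternatives varied the filter, pseudocount (5), scaling (equal totals, a trimmed mean of log ratios, quantile), fit and libraries.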

Additional observations from a re-analysis of the deposited data

Results flagged for a closer look

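Between the 2 times after ablation, 13 of the 47 genes differed, by limma's test of 21 d against 48 h (adjusted p under 0.05). Since both times are set against the same uninjured libraries, this is also the test of the difference between their changes. Of the 13, dnajb11, manf, sec61a1 and ssr2 were not called against uninjured valves at either time. For 12 genes (25.5%) the value at 21 d was below that at 48 h, against 4.4% of all genes tested. The log2 fold changes of 21 d against 48 h were -1.11 for dnajb11, -1.22 for hsp90b1, -1.38 for hspa5, -1.07 for hyou1 and -1.18 for manf among the ER chaperones. They were -1.27 for calr, -1.04 for calr3a and -0.93 for canx among the lectin chaperones, and -1.30 for pdia3 and -1.47 for pdia4 among the disulfide isomerases. In the translocation channel they were -0.77 for sec61a1 and -0.86 for ssr2. For ppp1r15a alone (2.13%) the value at 21 d was above that at 48 h, at 1.56, against 5.48% of all genes tested. When single libraries were left out, manf lost its call without any of 4 libraries (adjusted p 0.0751 to 0.138) and ssr2 likewise (0.0988 to 0.182).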

How the results depend on the processing

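In 19 alternatives (10 settings and 9 fits without 1 library), no call of the 47 genes changed direction. At 48 h against uninjured valves, hspa5, hsp90b1, calr3a, calr3b, canx, pdia3 and ppp1r15a passed in all 19. Without 1 library at a time, 8 to 11 genes were higher and 1 was lower, and the median log2 fold change was 0.32 to 0.54. At 21 d, 0 genes were higher or lower, with a median of -0.20 (without uninjured library 1) to -0.047 (without uninjured library 2). Between 21 d and 48 h, 10 to 12 were lower and 1 was higher, with a median of -0.59 to -0.46. Equal column totals gave a median of 0.69 at 48 h, with 16 genes higher, and of -0.75 between 21 d and 48 h, with 17 lower. The same scaling put the median of all genes at 0.28 and -0.23. Calls over all genes, both directions together, numbered 1997 and 1888 under it, against 1927 and 1768 in the main fit. Shares of all genes by direction were not counted in the alternatives, so the counts of the 47 have none beside them there. The added calls under equal totals at 48 h were dnajb11, manf, sec61a1, ssr4 and sar1b. The replicate numbers did not pair the libraries: deviations of same-numbered libraries correlated at -0.02 to 0.03. With the number as a replicate block, 11 genes were higher and 1 lower at 48 h, and 11 were lower and 1 higher between 21 d and 48 h, where ssr2 no longer passed (adjusted p = 0.0541). The alternatives on the counts over the wider lists were added after seeing the data. The depth behind each value is unknown, and values near 0 (dnajb9a, dnajb9b, sec16b) carry no fold.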
